A study of Mus musculus with 6 samples.

Results

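The genes described here encode the outer part of the Wnt pathway: 19 Wnt ligands, the secretion factors Porcn and Wls, 4 R-spondins, 10 Frizzled receptors, the co-receptors Lrp5 and Lrp6, and the receptors Ror1, Ror2 and Ryk. All probe sets that the array's probe table pairs with exactly 1 of these 40 symbols were taken, which gave 80 of the 45037 probe sets that are not controls, and every gene had at least 1. They were measured in GC1-Spg, an established mouse line derived from spermatogonia, which are the dividing germ cells at the base of the testis tubule. The 3 cultures tested received siRNA against mrhl, a noncoding RNA transcribed from within the Phkb gene, and the 3 control cultures received scrambled siRNA. Both siRNAs were used at 100 nM and RNA was taken 44 h after transfection, so every culture carries a transfected siRNA and no untransfected cells were analysed here. Each culture went onto its own 1-colour Affymetrix array, and the titles number the biological replicates 1 to 3 in each group.

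A Wnt protein is lipid-modified by the acyltransferase Porcn and carried to the cell surface by Wls. It then binds a Frizzled receptor, and where Lrp5 or Lrp6 joins the complex the signal stabilizes beta-catenin, which activates genes with TCF/LEF factors. Ror1, Ror2 and Ryk are single-pass receptors of branches that do not need beta-catenin, and R-spondins strengthen the response by keeping Frizzleds at the surface. In the mouse testis, Wnt ligands of the Sertoli cells, the somatic cells that nurse the germ cells, act on spermatogonia; Wnt5a and Wnt6 are examples. The RNA mrhl has been studied for a link to Wnt signalling in these cells, and the comparison asks whether the ligands and receptors differ when it is silenced. No probe set was paired with mrhl, so its own level was not read here; per the design text the submitters checked its silencing by quantitative PCR.

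Of the 80 probe sets, 64 were bright enough to be tested, from 35 of the 40 genes, and 0 passed an adjusted p of 0.05 (limma, adjusted p from 0.965 to 0.999). The share passing over all 33778 probe sets tested was 0%. Without adjustment 2 of the 64 had a limma p under 0.05, which is 3.12%, against 3.44% of all probe sets tested. Both belonged to Fzd6 and were lower after mrhl siRNA, the direction of 2.18% of all tested. With the replicate number as a block, 11 of the 64 had an unadjusted p under 0.05 (limma), which is 17.2%, against 10.1% of all. These were the 3 probe sets of Fzd6, both of Fzd5, 2 of Fzd2, and single ones of Lrp5, Wnt4, Fzd9 and Fzd10, and the smallest adjusted p among them was 0.487. Of the 11, 5 were higher (3.87% of all tested) and 6 lower (6.23% of all tested). Across the 64, 31 had a positive fold change, or 48.4% (43.8% of all tested), and 33 a negative one, or 51.6% (56.2% of all tested). Their median log2 fold change was -0.011, and that over all probe sets tested was -0.033. Fold changes are given as mrhl siRNA minus scrambled siRNA on the log2 scale of the deposited values, and every tested probe set of the members had a limma adjusted p of 0.965 or more.

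**Figure D1:**
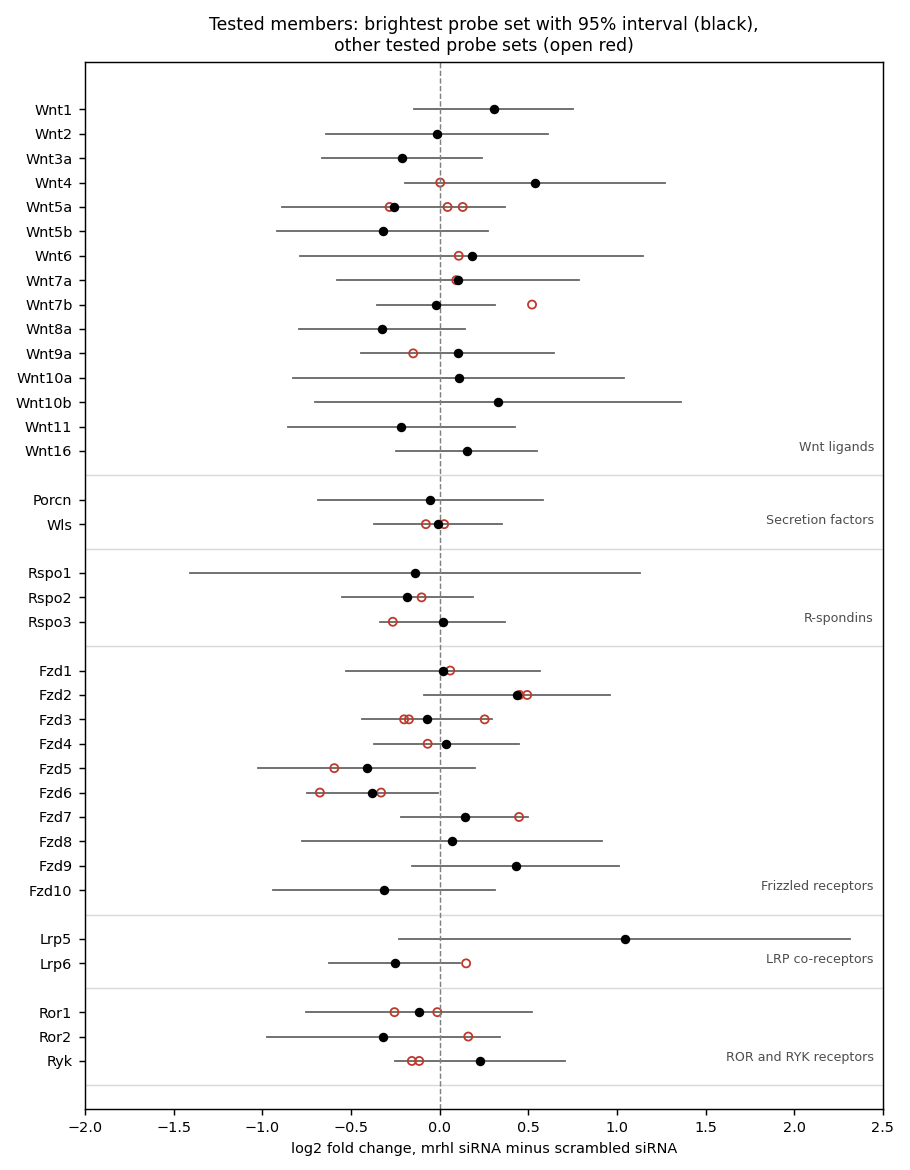
Log2 fold change, mrhl siRNA minus scrambled siRNA (horizontal axis), of the brightest tested probe set of each of the 35 tested genes (black points with the 95% interval of the limma fit), with the other tested probe sets of the same gene as open red circles. In this fit, which has no replicate block, the interval of Fzd6 stays under 0 and those of the other black points span 0. The interval of Lrp5 runs from -0.23 to 2.31 with a scrambled siRNA mean under the sensory receptor level. The circles of Fzd2, Fzd5 and Fzd6 lie on the same side as the black point. That of Fzd5 and the leftmost of Fzd6 have both group means under that level.

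Probe sets differ in how strongly they bind, so their signals were not ordered against each other. To see which members had a signal at all, each was set against 80 probe sets of olfactory and vomeronasal receptors, genes of sensory neurons. The 95th percentile of those was 4.91 on the log2 scale, and 38 of the 80 member probe sets, from 24 genes, exceeded it in both groups. Among the ligands these were Wnt4, Wnt5a, Wnt6, Wnt7a, Wnt7b, Wnt9a, Wnt10a and Wnt11, 8 of 19. Both secretion factors did so, and 2 of the 4 R-spondins, Rspo2 and Rspo3. On the receptor side, 8 of the 10 Frizzleds exceeded the level, all but Fzd3 and Fzd9, as did Lrp6, Ror1, Ror2 and Ryk. Lrp5 did not, and neither did Wnt1, Wnt2, Wnt2b, Wnt3, Wnt3a, Wnt5b, Wnt8a, Wnt8b, Wnt9b, Wnt10b, Wnt16, Rspo1 and Rspo4. A signal under that level does not show that a gene is silent, because a probe set can bind weakly.

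**Figure D2:**
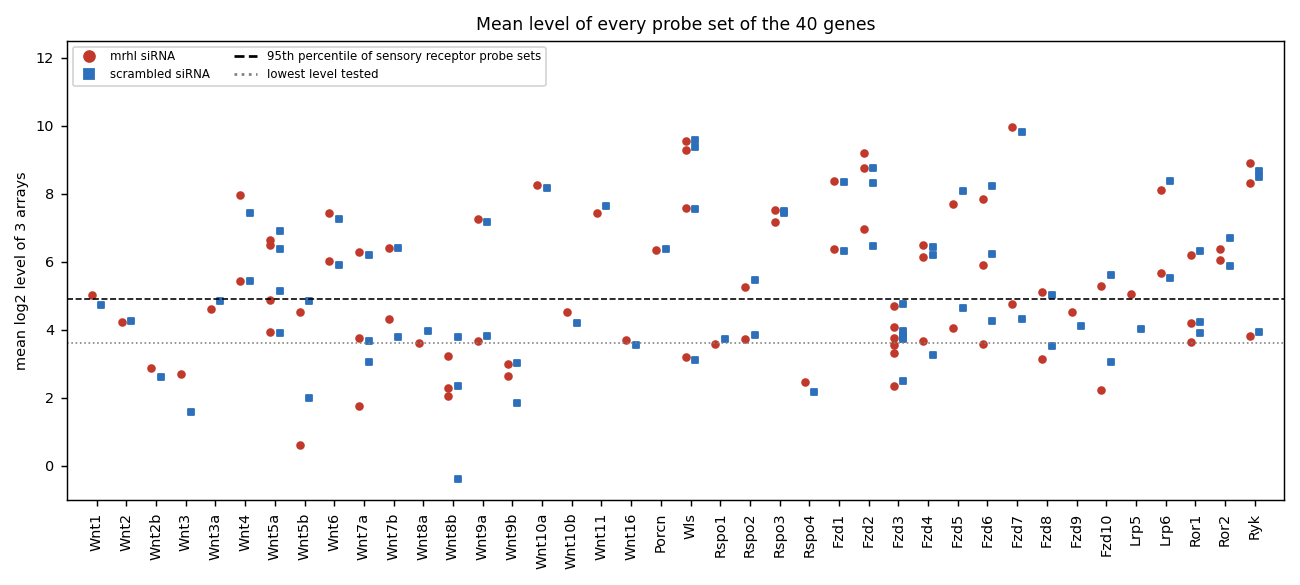
Mean log2 level over 3 arrays (vertical axis) of every probe set of the 40 genes, with mrhl siRNA as red circles and scrambled siRNA as blue squares to their right. The dashed line is the 95th percentile of the olfactory and vomeronasal receptor probe sets, 4.91, and the dotted line is the lowest mean level tested, 3.62; no probe set of Wnt2b, Wnt3, Wnt8b, Wnt9b or Rspo4 had a mean over all 6 arrays that reached the dotted line.

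The labelled cell type was set against its markers by the same level. Of 20 spermatogonial and germ cell markers on the array, 8 exceeded it, among them Gfra1, Zbtb16, Id4, Etv5 and Itga6, while Ddx4, Dazl, Kit, Stra8, Sall4 and Lin28a did not. Of 10 Sertoli cell markers 8 exceeded it, including Wt1 and Sox9, and of 11 fibroblast and myoid markers 8 did, including Col1a1, Vim and Acta2. For Leydig cells 1 of 5 and for blood and endothelial cells 3 of 7 did. All 9 tested fibroblast and myoid markers had values above 0 on the log2 fold scale (median 0.31), and the mean log2 level of these 9 lay between 9.52 and 9.70 on the mrhl siRNA arrays and between 8.90 and 9.49 on the scrambled siRNA arrays. That parting rests on the collagen gene Col3a1, with a log2 difference of 2.04 (SE 0.244). Without it, an alternative added after the values were seen, the other 8 averaged 9.88, 9.77 and 9.75 on the mrhl siRNA arrays and 9.89, 9.31 and 9.46 on the scrambled siRNA arrays, and the groups overlapped. Their part in the differences between the groups given below was not tested. The mean of the 14 tested germ cell markers lay between 5.57 and 5.68 after mrhl siRNA and between 5.64 and 5.75 after scrambled siRNA.

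The receptor gene Fzd6 had all 3 of its tested probe sets lower on every mrhl siRNA array than on any scrambled siRNA array. Fzd6 is a Frizzled best known in mice for planar polarity, the alignment of cells and hairs within a sheet. Its brightest probe set read 7.73, 7.87 and 7.91 in mrhl siRNA cultures 1 to 3, against 8.08, 8.45 and 8.12 in scrambled siRNA cultures 1 to 3. The means were 7.84 ± 0.091 and 8.22 ± 0.20 (SD, n = 3 each). The groups lay apart by 0.17 at their nearest, the difference between scrambled siRNA replicate 1 and mrhl siRNA replicate 3. The difference on the log2 scale was -0.38, with a standard error of 0.157 and a 95% interval of -0.75 to -0.011 (-0.70 to -0.062 with the replicate block), a level 1.3-fold lower, with an unadjusted limma p of 0.045. The differences within replicate numbers 1 to 3 were -0.35, -0.58 and -0.21.

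The second probe set of Fzd6 read 6.11, 5.70 and 5.89 in mrhl siRNA cultures, against 6.31, 6.24 and 6.13 in scrambled siRNA cultures. On the log2 scale the difference was -0.33 (95% interval -0.70 to 0.040), and the nearest arrays of the groups differed by 0.025. The dimmest read 3.58, 3.58 and 3.56 after mrhl siRNA, against 4.49, 4.39 and 3.85 after scrambled siRNA. It differed by -0.68 (95% interval -1.13 to -0.22), with an unadjusted limma p of 0.00931. Both of its group means, 3.57 and 4.25, lie under the sensory receptor level of 4.91. That after mrhl siRNA lies under 3.62, the lowest mean tested, so the probe set was tested only through its scrambled siRNA values. Its unadjusted p, the lack of overlap and the size of the difference therefore rest on weak signal. Non-overlapping groups were found in 4 of the 64 tested member probe sets, or 6.25%, against 8.40% of all probe sets tested. The 3 of Fzd6 were lower (5.82% of all tested) and the 1 of Fzd2 higher (2.58% of all tested). After quantile normalization or with array medians set to 0 the groups stayed apart in 2 of the 4, the brightest and the dimmest of Fzd6. In all other tested probe sets of the members the groups overlapped.

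Fzd2, a Frizzled that takes part in both beta-catenin and Wnt5a signalling, had positive values in all 3 of its tested probe sets. The brightest read 9.47, 9.10 and 9.01 in mrhl siRNA cultures, against 9.02, 8.35 and 8.91 in scrambled siRNA cultures. This was a log2 fold change of 0.44 with a standard error of 0.224 and a 95% interval of -0.090 to 0.96. The groups overlapped only because scrambled siRNA replicate 1 lay just above mrhl siRNA replicate 3. The suffix of that probe set, s_at, marks probes that can match more than 1 transcript.
The second probe set read 8.97, 8.67 and 8.63 after mrhl siRNA, against 8.59, 7.85 and 8.49 after scrambled siRNA, and here the groups did not overlap. The difference came to 0.45 in log2 units (95% interval -0.081 to 0.98), and that of the dimmest was 0.49 (95% interval -0.26 to 1.25). In all 3 probe sets the lowest array was scrambled siRNA replicate 2, and without that array the log2 fold changes of the brightest and the second were 0.23 and 0.22. With the replicate block the interval of the brightest was 0.034 to 0.84.

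Fzd5, the receptor for Wnt5a and other ligands that is needed for the yolk sac vessels of the mouse embryo, was lower after mrhl siRNA within each replicate number. The brighter probe set read 7.42, 7.50 and 8.13 in mrhl siRNA cultures, against 7.76, 8.02 and 8.50 in scrambled siRNA cultures. The groups overlapped, because replicate 3 was the highest culture of each group, while the differences within replicate numbers 1 to 3 were -0.34, -0.52 and -0.37. This was a log2 fold change of -0.41 with a standard error of 0.261 and a 95% interval of -1.02 to 0.20, or -0.69 to -0.13 with the replicate block. It ran from -0.63, without mrhl siRNA replicate 3, to -0.21, without scrambled siRNA replicate 3. The dimmer one read 3.53, 3.76 and 4.89 after mrhl siRNA, against 4.0, 4.52 and 5.45 after scrambled siRNA, in the same order of cultures. Its log2 difference was -0.59 (95% interval -1.67 to 0.48), and both of its group means lie under the sensory receptor level. All 3 differences in a single direction were found in 25 of the 64 tested member probe sets, or 39.1%, against 37.5% of all probe sets tested. They were higher in 10 (14.1% of all tested) and lower in 15 (23.4% of all tested).

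Fzd5, like Fzd6 and Fzd2, had every tested probe set on the same side of 0 in all 3 replicate numbers. The dimmest of Fzd5 and of Fzd6 had both group means under the sensory receptor level. The promoter window of Fzd5 is shown because of that shared direction. It comes from RefSeq and covers chr1:64737701-64738000 of GRCm38.p6 on the minus strand, from 250 bases before the transcription start to 50 after, and its 38 CG dinucleotides, the sites of DNA methylation in mammals, are in capitals.
Fzd5: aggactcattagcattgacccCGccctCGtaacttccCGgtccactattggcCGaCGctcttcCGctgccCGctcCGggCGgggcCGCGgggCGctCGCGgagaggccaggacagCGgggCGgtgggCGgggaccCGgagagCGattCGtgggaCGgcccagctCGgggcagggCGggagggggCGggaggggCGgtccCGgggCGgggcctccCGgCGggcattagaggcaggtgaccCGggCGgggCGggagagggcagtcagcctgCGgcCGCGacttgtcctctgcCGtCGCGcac
Windows were found for 27 of the 40 genes, 30 in all. They held a median of 30 CG dinucleotides (4 to 58), against a median of 13 over 21262 windows of protein-coding genes, and their median GC content was 70.8%, against 56.3%.

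The other Frizzleds had smaller or less even values. Fzd7, a receptor often used by stem cells, read 9.89, 9.88 and 10.09 in mrhl siRNA cultures, against 9.71, 9.73 and 10.01 in scrambled siRNA cultures, and the values of the groups overlapped. The log2 difference was 0.14, 95% interval -0.22 to 0.50, and that of its dimmer probe set was 0.45. Both group means of the dimmer probe set lie under the sensory receptor level. Fzd10 read 4.92, 5.63 and 5.33 after mrhl siRNA, against 5.12, 5.90 and 5.79 after scrambled siRNA, a log2 difference of -0.31 (95% interval -0.94 to 0.31, or -0.61 to -0.016 with the replicate block). Replicate 1 was the lowest culture of each group.
Fzd9 read 4.60, 4.75 and 4.24 after mrhl siRNA, against 4.47, 4.20 and 3.63 after scrambled siRNA, with a log2 difference of 0.43 (95% interval -0.15 to 1.01, or 0.065 to 0.80 with the replicate block). The means of Fzd9 and Fzd3 lay under the level of the sensory receptor probe sets in both groups. Fzd3, which guides axons in mice, read 4.66, 4.75 and 4.70 in mrhl siRNA cultures, against 4.82, 4.54 and 4.96 in scrambled siRNA cultures, a log2 fold change of -0.073, and its 3 other tested probe sets ran from -0.20 to 0.25.
The brightest probe sets of Fzd1, Fzd4 and Fzd8 had log2 fold changes of 0.020, 0.038 and 0.069. Another probe set of Fzd4 was not tested because its mean over all arrays lay under 3.62. It read 3.79, 3.72 and 3.49 after mrhl siRNA, against 3.19, 3.42 and 3.20 after scrambled siRNA, without overlap. Both of its group means lie under the sensory receptor level, and it was picked out after its values were seen. Groups without overlap were found in 8.40% of all probe sets tested. Both tested probe sets of Fzd4 had groups that overlapped.

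**Figure D3:**
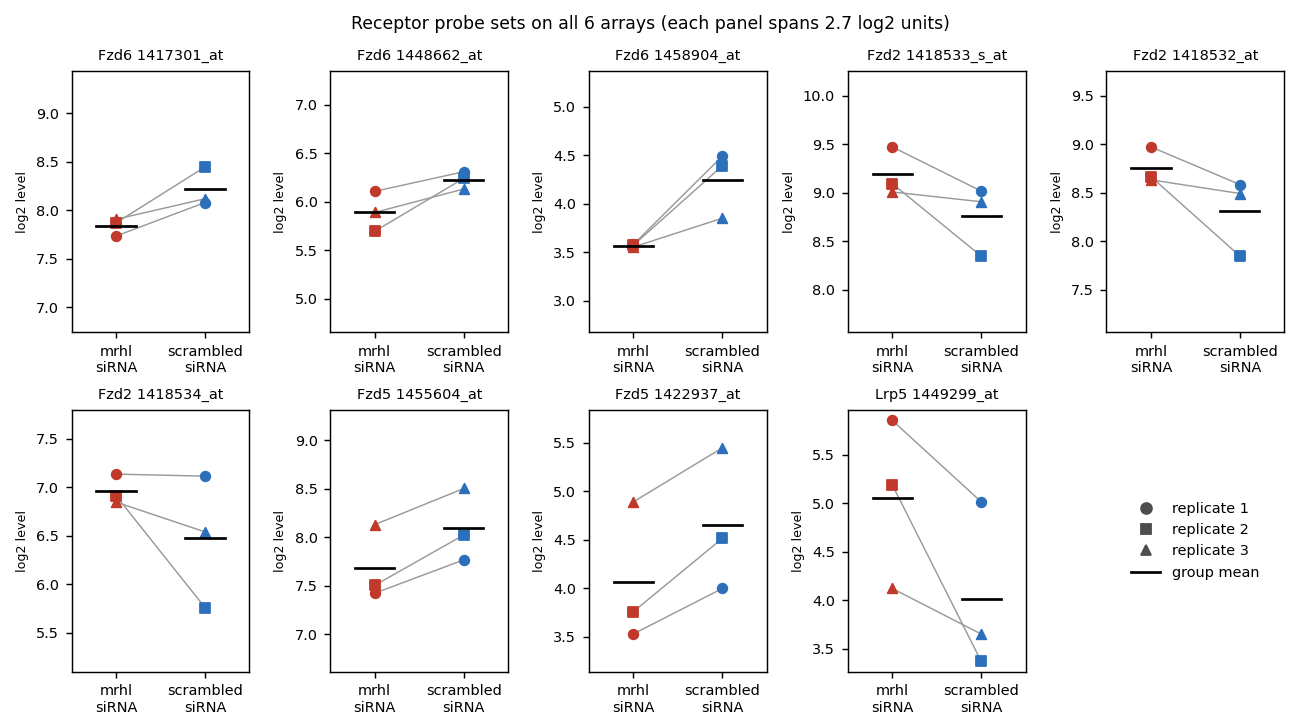
Log2 level (vertical axis) of the tested probe sets of Fzd6, Fzd2, Fzd5 and Lrp5 on all 6 arrays, with mrhl siRNA in red on the left and scrambled siRNA in blue on the right; marker shapes are replicate numbers, grey lines join equal numbers and black bars are group means. The groups lie apart in all 3 panels of Fzd6 and in the second panel of Fzd2, and in the panels of Fzd5 every line climbs toward scrambled siRNA although the groups overlap.

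The co-receptors Lrp5 and Lrp6 are related proteins that Wnt draws into the complex with Frizzled. The single probe set of Lrp5 read 5.86, 5.19 and 4.12 in mrhl siRNA cultures, against 5.02, 3.37 and 3.65 in scrambled siRNA cultures. The means were 5.06 ± 0.87 and 4.01 ± 0.88 (SD, n = 3 each), and the groups overlapped. The fitted log2 difference was 1.04 (SE 0.543, 95% interval -0.23 to 2.31, or 0.35 to 1.74 with the replicate block), but the scrambled siRNA mean lies under the sensory receptor level of 4.91, so its size is not a measured fold. The differences within replicate numbers 1 to 3 were 0.84, 1.82 and 0.47, and 2 of the 3 scrambled siRNA cultures lay near 3.62, the lowest level tested. With arrays left out the difference ran from 0.64, without mrhl siRNA replicate 1, to 1.55, without scrambled siRNA replicate 1, and it was 0.72 without scrambled siRNA replicate 2.
Lrp6 read 8.03, 8.06 and 8.26 in mrhl siRNA cultures, against 8.46, 8.15 and 8.50 in scrambled siRNA cultures, through its brightest probe set. On the log2 scale the difference was -0.25 (95% interval -0.62 to 0.12, or -0.56 to 0.055 with the replicate block). It was negative in each replicate number, and the other probe set of Lrp6 had 0.15.

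For the receptors outside the Frizzled and LRP families, every 95% interval spanned 0. Ryk, a Wnt receptor with an inactive kinase domain, read 9.11, 8.68 and 8.90 in mrhl siRNA cultures, against 9.02, 8.42 and 8.56 in scrambled siRNA cultures. That gave a log2 difference of 0.23 (95% interval -0.25 to 0.71, or -0.063 to 0.52 with the replicate block). The other tested probe sets of Ryk had -0.16 and -0.12, so the probe sets disagree in sign. Ror2, a receptor of Wnt5a, read 6.25, 6.03 and 6.87 after mrhl siRNA, against 6.29, 6.73 and 7.07 after scrambled siRNA. The difference came to -0.32 in log2 units (95% interval -0.97 to 0.34, or -0.73 to 0.099 with the replicate block). The other probe set of Ror2 had 0.16. Ror1 read 5.78, 6.21 and 6.64 after mrhl siRNA, against 5.91, 6.46 and 6.61 after scrambled siRNA, a log2 difference of -0.12 (95% interval -0.76 to 0.52), and its dimmer probe sets had -0.013 and -0.25. Among the 20 genes with 2 or more tested probe sets, all had the same sign in 10, 6 positive and 4 negative. Some of these values lay near 0, such as 0.020 and 0.059 for Fzd1 and 0.0032 for the dimmer of Wnt4. The share over all genes was not computed, so the count is only a description.

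Among the ligands, 14 of 23 tested probe sets had a positive log2 fold change and 9 a negative one (median 0.09). Over all tested, 43.8% were positive and 56.2% negative (median -0.033). Without the replicate block, 0 of the 23 had an unadjusted limma p under 0.05, and 0 had groups that did not overlap. Wnt4, which in the mouse is needed for the development of the ovary and kidney, gave the largest value. It read 8.49, 7.78 and 7.63 in mrhl siRNA cultures, against 7.98, 7.04 and 7.26 in scrambled siRNA cultures, and replicate 1 was the highest culture of each group. This was a log2 fold change of 0.54 with a standard error of 0.313 and a 95% interval of -0.19 to 1.27 (0.22 to 0.86 with the replicate block), with differences within replicate numbers 1 to 3 of 0.51, 0.74 and 0.37. It ran from 0.28, without mrhl siRNA replicate 1, to 0.82, without scrambled siRNA replicate 1, and was 0.34 without scrambled siRNA replicate 2. The other probe set of Wnt4 read 5.76, 5.67 and 4.86 after mrhl siRNA, against 5.75, 5.44 and 5.09 after scrambled siRNA, a log2 fold change of 0.0032, so the 2 probe sets of Wnt4 differ.

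RefSeq promoter windows of Wnt4 and Wnt11, of the same length, are shown for their contrast in base words. That of Wnt4, chr4:137277385-137277684 of GRCm38.p6 on the plus strand, has 51 CG dinucleotides, in capitals, and neither CTTTGA nor CTTTGT, the core words bound by TCF/LEF factors, on either strand. The window shown of Wnt11, chr7:98834862-98835161 on the plus strand, was chosen because it holds the longer TCF/LEF word CTTTGATC. The word lies on the opposite strand, so it appears in capitals as GATCAAAG. Another window of Wnt11, chr7:98838595-98838894, holds none of these words.
Wnt4: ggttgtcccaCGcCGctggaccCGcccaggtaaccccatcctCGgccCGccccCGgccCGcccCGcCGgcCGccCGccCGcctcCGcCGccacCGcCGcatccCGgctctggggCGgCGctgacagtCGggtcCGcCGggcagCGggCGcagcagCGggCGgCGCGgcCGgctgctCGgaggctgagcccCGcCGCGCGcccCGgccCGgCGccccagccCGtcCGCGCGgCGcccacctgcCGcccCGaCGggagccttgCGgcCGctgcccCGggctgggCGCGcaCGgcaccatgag
Wnt11: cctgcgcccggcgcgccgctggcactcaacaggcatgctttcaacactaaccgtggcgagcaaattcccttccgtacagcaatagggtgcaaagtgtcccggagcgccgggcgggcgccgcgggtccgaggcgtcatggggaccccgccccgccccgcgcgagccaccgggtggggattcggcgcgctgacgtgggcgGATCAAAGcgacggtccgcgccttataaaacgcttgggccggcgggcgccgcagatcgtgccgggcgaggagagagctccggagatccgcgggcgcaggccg
The word CTTTGATC, which contains CTTTGA, was found on either strand in 2 of the 30 member windows, 1 of Wnt11 and 1 of Wnt5b, or 6.67%, and in 0.842% of the windows of protein-coding genes. CTTTGA or CTTTGT was found in 8 of the 30, or 26.7%, against 28.3%. A word in a window is a description of these letters and not a bound site.

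Wnt11, a ligand of branches without beta-catenin, read 7.01, 7.35 and 7.92 in mrhl siRNA cultures, against 7.73, 7.27 and 7.93 in scrambled siRNA cultures. The differences within replicate numbers 1 to 3 were -0.72, 0.075 and -0.0023, and over all arrays the log2 fold change was -0.22 (95% interval -0.86 to 0.43). Wnt5a, read through 4 tested probe sets, had 7.02, 6.12 and 6.77 in mrhl siRNA cultures, against 7.20, 6.58 and 6.90 in scrambled siRNA cultures, at its brightest. That probe set had a log2 difference of -0.26 (95% interval -0.89 to 0.37, or -0.57 to 0.052 with the replicate block). This difference was -0.0021 without mrhl siRNA replicate 2 and ran to -0.45 without mrhl siRNA replicate 1. The others had 0.13, -0.28 and 0.044, so they disagree in sign.
Its relative Wnt5b read 4.86, 3.94 and 4.80 after mrhl siRNA, against 4.91, 4.88 and 4.77 after scrambled siRNA, a log2 fold change of -0.32 in which mrhl siRNA replicate 2 was the lowest array.

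The next ligands did not exceed the sensory receptor level in both groups. Wnt1, the founding member of the family, read 5.12, 4.94 and 5.03 in mrhl siRNA cultures, against 4.75, 5.04 and 4.39 in scrambled siRNA cultures, with a log2 difference of 0.31 (95% interval -0.14 to 0.75). Wnt3a, a strong activator of beta-catenin, read 4.75, 4.67 and 4.45 after mrhl siRNA, against 5.17, 4.76 and 4.57 after scrambled siRNA, a log2 difference of -0.21 (95% interval -0.66 to 0.24). The groups overlapped for both genes.
Wnt8a read 3.99, 3.62 and 3.27 after mrhl siRNA, against 3.93, 4.0 and 3.93 after scrambled siRNA, a log2 fold change of -0.33. Wnt16 read 3.75, 3.59 and 3.78 after mrhl siRNA, against 3.75, 3.63 and 3.27 after scrambled siRNA, a log2 fold change of 0.15. The brightest probe sets of Wnt2, Wnt7a, Wnt7b and Wnt9a, of which the last 3 exceeded the sensory receptor level, ran from -0.019 to 0.10. The dimmer tested probe set of Wnt7b had 0.52, with both group means under that level.
Of the 5 genes with no tested probe set, Wnt8b had groups that did not overlap in 1 of its 3 probe sets. That probe set read 1.05, 2.92 and 2.20 in mrhl siRNA cultures, against -0.59, -0.30 and -0.27 in scrambled siRNA cultures, all under the lowest level tested, and it was picked out after its values were seen.

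The tested probe sets of the secretion factors had log2 differences from -0.078 to 0.025. Wls read 9.75, 9.37 and 9.58 in mrhl siRNA cultures, against 9.61, 9.64 and 9.47 in scrambled siRNA cultures, with a log2 difference of -0.0094 (95% interval -0.37 to 0.35). Its other tested probe sets had -0.078 and 0.025. Porcn read 6.44, 5.89 and 6.67 after mrhl siRNA, against 6.46, 5.96 and 6.74 after scrambled siRNA. The log2 difference was -0.053, 95% interval -0.69 to 0.58, and each difference within a replicate number (-0.021, -0.070 and -0.068) was less than the spread between cultures of a group.
Of the R-spondins, Rspo2 read 5.39, 5.19 and 5.24 after mrhl siRNA, against 5.32, 5.68 and 5.36 after scrambled siRNA, a log2 difference of -0.18 (95% interval -0.55 to 0.19). The tested probe sets of Rspo3 had 0.016 and -0.26, and that of Rspo1 had -0.14 with a standard error of 0.542.

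Cultures with the same replicate number resembled each other in many members, a pattern that was noticed in these values and is given without a test. The median range of the 3 number means was 0.54 for the tested member probe sets and 0.36 over all probe sets tested. Both arrays of number 1 lay above the other 4 in 17 member probe sets, or 26.6%, against 13.4% of all, and below them in 5, or 7.81%, against 13.2%. For number 2 the counts were 3 above (7.03% of all tested) and 9 below (10.4%), and for number 3 they were 12 above (18.6%) and 6 below (8.91%). The 17 included 9 ligand probe sets, of Wnt4, Wnt5a, Wnt6, Wnt7a, Wnt7b, Wnt10a and Wnt10b. Those of Wnt7a, Wnt7b and Wnt10b had both group means under the sensory receptor level. The brightest probe set of Wnt7a was instead highest in number 2, and that of Wnt7b in number 3. Of the 4 tested probe sets of Wnt5a only the brightest was counted, and the second was highest in number 3.
Wnt6 and Wnt10a, ligands encoded by neighbouring genes on chromosome 1 in the RefSeq gene order of GRCm38.p6, both had number 1 highest. Wnt10a read 9.03, 8.04 and 7.75 in mrhl siRNA cultures 1 to 3, against 8.83, 7.95 and 7.71 in scrambled siRNA cultures 1 to 3, a log2 fold change of 0.11. Wnt6 read 8.19, 7.29 and 6.84 after mrhl siRNA, against 7.97, 6.87 and 6.94 after scrambled siRNA, a log2 fold change of 0.18. In both genes replicate 1 stood above the others by more than the siRNAs differed within any number, in each group.
Of the other neighbouring members, Wnt10b, next to Wnt1 on chromosome 15, read 4.91, 4.78 and 3.90 after mrhl siRNA, against 5.15, 3.73 and 3.71 after scrambled siRNA, a log2 difference of 0.33 (95% interval -0.70 to 1.36). Wnt3a with Wnt9a, and Wnt9b with Wnt3, are the remaining neighbours, on chromosome 11, and neither Wnt9b nor Wnt3 was bright enough to be tested. Fzd1 read 8.73, 8.09 and 8.31 after mrhl siRNA, against 8.74, 8.14 and 8.20 after scrambled siRNA, also highest in number 1.
Axin2, the feedback target of beta-catenin signalling, was also highest in number 1, with 8.93, 7.83 and 7.30 in mrhl siRNA cultures and 8.78, 7.15 and 7.42 in scrambled siRNA cultures. Of the 9 tested fibroblast and myoid markers, both arrays of number 1 were the highest for 5 (Acta2, Col1a1, Col1a2, Pdgfra and Des), the lowest for 0, and neither for 4 (Col3a1, Vim, Myh11 and S100a4). The part of any such difference between cultures in the Wnt values was not tested. In bulk cultures, fewer cells of a type and less RNA per cell cannot be told apart.

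**Figure D4:**
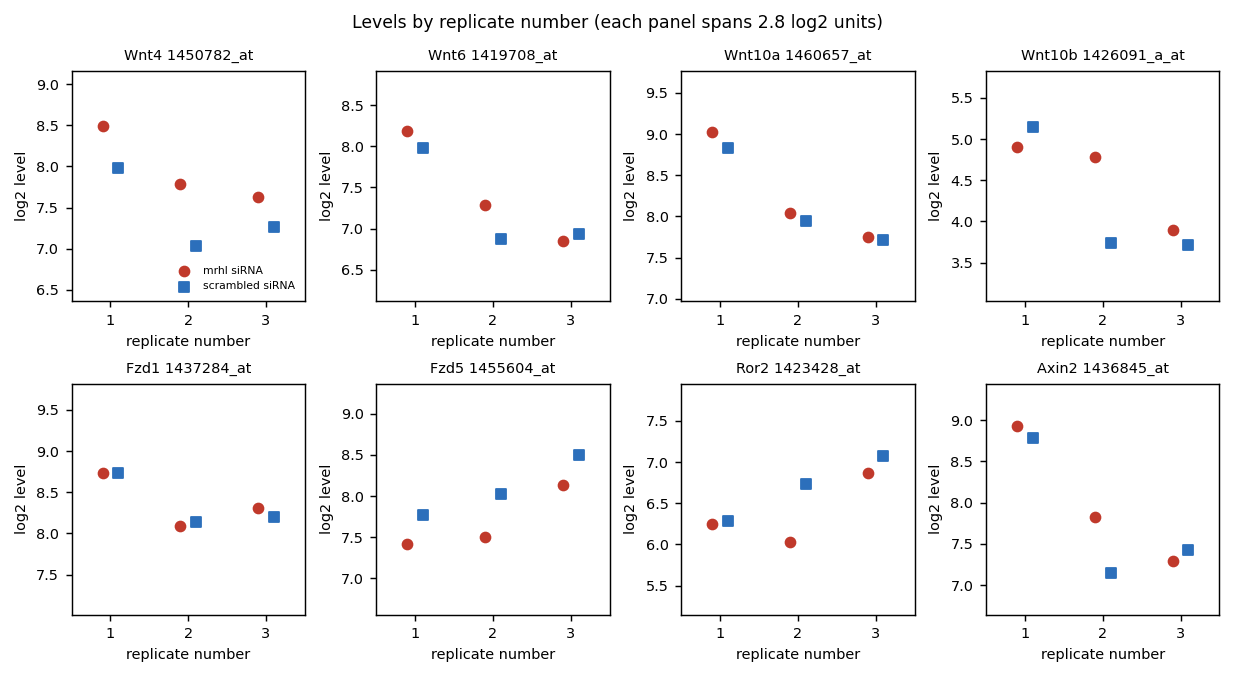
Log2 level (vertical axis) by replicate number (horizontal axis) of the brightest tested probe set of Wnt4, Wnt6, Wnt10a, Wnt10b, Fzd1, Fzd5, Ror2 and the target gene Axin2, with mrhl siRNA as red circles and scrambled siRNA as blue squares. Both cultures of number 1 are the highest for Wnt4, Wnt6, Wnt10a, Wnt10b, Fzd1 and Axin2, and both of number 3 for Fzd5 and Ror2.

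Other genes of the pathway did not pass either, with 0 past the adjusted threshold in each of 5 lists (limma, adjusted p of 0.965 or more). Of the 5 R-spondin receptors and turnover ligases, all tested, 1 had a positive and 4 a negative log2 fold change. Znrf3 and Rnf43, ligases that remove Frizzleds from the surface, had -0.31 (SE 0.187) and -0.54 (SE 0.352), and the R-spondin receptor Lgr6 had -0.17. Both group means of Rnf43 lie under the sensory receptor level, and that after mrhl siRNA, 3.56, under the lowest mean tested. Of 9 tested polarity genes and other co-receptors, 5 were positive and 4 negative, with -0.38 for the glypican Gpc4, 0.28 for Gpc3 and -0.29 for the polarity gene Prickle2.
Of 13 tested antagonists, 7 were positive and 6 negative. Kremen1, a receptor of the Lrp6 blocker Dkk1, had 0.37 (SE 0.149), and the secreted binders of Wnt Frzb and Sfrp1 had 0.75 (SE 0.335) and -0.25. Of 22 tested transducers, 12 were positive and 10 negative, with -0.32 for the casein kinase Csnk1g3, 0.37 for Apc2 and 0.35 for the beta-catenin cofactor Bcl9l. Both group means of Apc2 lie under the sensory receptor level. Of 9 tested target genes, 4 were positive and 5 negative, with 0.76 (SE 0.314) for Fgf18, -0.23 for Ccnd1 and -0.12 for Myc. The medians of the 5 lists ran from -0.17 for the R-spondin receptors to 0.05 for the transducers, against -0.033 over all probe sets tested.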

How the data were processed

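RNA of 6 GC1-Spg cultures, 3 with mrhl siRNA and 3 with scrambled siRNA, was read on 1 array each, and groups and numbers come from the sample titles. The deposited values are log2 expression values, a scale read from their range; GCOS and PLIER are named in the submitters' processing notes, with versions, background correction and normalization not given in the sources used here. Array medians differed by at most 0.11, so values were used as deposited. Of 45101 rows, 64 controls were left out, and 34945 of the other probe sets were paired with 1 symbol, 932 with several and 9160 were not listed. Probe sets with a mean under the 25th percentile, 3.62, were not tested, which left 33778.

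Groups were compared with limma 3.58.1 in R 4.3.3 (lmFit, eBayes), with p-values adjusted by Benjamini-Hochberg across the 33778 and called at 0.05. This main fit treats the arrays as unpaired. With 3 arrays a group, its standard error of a log2 difference had a median of 0.192, against 0.132 with the replicate block. The number of arrays limits both. The members, lists and tests were chosen with earlier results of these data known. The titles call the replicates biological, and the design text speaks of 3 independent experiments.

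Values on all arrays are given for members with a tested probe set at an unadjusted p under 0.05 or with groups that do not overlap, for Porcn, Wls, Lrp5, Lrp6, Ryk, Ror1 and Ror2, and for further members by smallest p up to 24 genes; of each other list the 3 genes with the smallest p are named. Wnt6, Wnt10a, Fzd1 and Axin2 were added after their values were seen. A gene was read through its brightest tested probe set.

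Equal replicate numbers deviated together from their group means, with correlations of 0.534, 0.201 and 0.567. Those of unequal numbers were -0.518 to 0.0684, but deviations within a group sum to 0, which pushes these toward negative values. Equal numbers may therefore be pairs, which the independent experiments of the design text allow. The main fit has no block, so its p-values and intervals do not use pairs, and values with the block are given beside it. The alternatives were the replicate block, array weights, a trended and robust eBayes step with or without that block, quantile normalization, medians of the arrays set to 0, a filter at the 50th percentile or none, and leaving out arrays. Figures were drawn with matplotlib 3.10.9.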

Additional observations from a re-analysis of the deposited data

How the results depend on the processing

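No member passed the adjusted threshold under any of the 17 alternative fits run. Over all probe sets, 2 passed with the replicate block and the trended, robust model, and 0 in the others. Member probe sets at an unadjusted limma p under 0.05, 2 as reported, were 1 after quantile normalization or with the filter at the median level, 5 with array weights, 11 with the replicate block, 12 with that block and the trended, robust model, and 0 to 9 with arrays left out. Those with groups apart, 4 as reported, were 2 after quantile normalization or with array medians set to 0, and 6 of 80 with no filter. They were 4 to 23 with arrays left out, where smaller groups part more easily. The median log2 fold change of the members, -0.011, was 0.018 after quantile normalization, 0.016 with the filter at the median level, and -0.076 to 0.0054 with arrays left out. Of 27 probe sets followed singly, 20 kept their sign in every fit that tested them, those of Fzd6, Fzd2, Fzd5 and Lrp5 among them. Without arrays, the 7 others ran from -0.10 to 0.12 for Wls, -0.27 to 0.17 for Porcn, -0.21 to 0.02 for Fzd3, -0.33 to 0.10 for Ror1, -0.46 to 0.04 for Wnt11, -0.03 to 0.81 for Wnt10b and -0.02 to 0.25 for Wnt16. Others moved by over 1.5 times with their sign kept: Wnt1 from 0.14 to 0.51, Wnt3a from -0.34 to -0.04, Wnt5b from -0.49 to -0.01, Wnt8a from -0.52 to -0.15, Rspo2 from -0.31 to -0.03, Fzd7 from 0.07 to 0.24, Fzd9 from 0.19 to 0.62, Fzd10 from -0.56 to -0.13, Ror2 from -0.56 to -0.12 and Ryk from 0.11 to 0.40. So did Fzd2 from 0.23 to 0.60, its second probe set from 0.22 to 0.60, and Fzd5 from -0.63 to -0.21. Lrp5 moved from 0.64 to 1.55, Lrp6 from -0.36 to -0.17, Wnt4 from 0.28 to 0.82 and Wnt5a from -0.45 to -0.0021. The brightest probe set of Fzd6 ran from -0.46 to -0.26. Wls was also 0.03 after quantile normalization, 0.0017 with array medians set to 0 and 0.0072 with array weights. The replicate block, which pairs equal numbers, changed no adjusted call. In this balanced design the block, the filters and the trended, robust step cannot change a fold change. A sign kept in those fits therefore carries no information. Leaving out arrays also cannot reverse a sign where the groups do not overlap, as for Fzd6 and the second probe set of Fzd2. Leaving out a replicate number cannot where all 3 differences share a direction, as for Fzd5, Lrp5 and the brightest of Fzd2. Most of the 27 were picked by these same values, so kept signs are a description and not support. Over the alternatives, the adjusted p of the brightest probe set of Fzd6 ranged from 0.27 to 1 (limma). Between 35 and 41 member probe sets exceeded the 99th and 90th percentile of the sensory receptor probe sets, against 38 for the 95th. The cause of these changes was not tested.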
